A study of Rattus norvegicus with 19 samples.

Results

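The 10 most abundant transcripts in RNA of the rat hypothalamic paraventricular nucleus (PVN), all mitochondrially encoded by the working description used here, were examined across strain and sex. They were the 10 of 30560 genes with the highest mean of median-of-ratios normalized counts over 19 libraries, and were chosen by that mean alone, with no contrast between groups. Bulk RNA was obtained from bilateral PVN punches of frozen brains of rats aged 14 weeks, and was poly(A)-selected for stranded, paired-end libraries. The groups were 4 male Wistar rats, 5 male Spontaneously Hypertensive Rats (SHR), 5 female Wistar rats and 5 female SHR. Wistar rats served as the normotensive strain and SHR as the hypertensive strain, and the study gave all animals the same telemetry implant surgery and recorded the females in dioestrus. Library totals ranged from 44943945 to 58793511 counts. The summed counts of the 10 transcripts took 7.06% to 11.8% of a library. The widest Wilson 95% interval of such a share was 0.019 percentage points. It covers counting error only, and treats each count as an independent draw.

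Mitochondrial DNA is inherited from the mother and encodes subunits of respiratory chain complexes I, III and IV and of ATP synthase, together with the ribosomal and transfer RNAs needed to translate them. It is transcribed into long precursors that are cut into single transcripts, most of whose messenger RNAs receive short poly(A) tails. Neurons depend heavily on oxidative phosphorylation, and mitochondrial transcripts are abundant in brain RNA. The nuclear genome carries copies of mitochondrial sequence, so reads of these transcripts can match more than 1 place, and how the counting treated such reads is not given in the sources used here.

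The count table names genes by Ensembl identifier, and 0 of these identifiers matched the reference table used here, so each transcript is called by its identifier and its product is not stated. For the same reason the mitochondrial origin of the 10 rows and the markers of the PVN and of its cell types were not checked here. The 10 rows lay within a run of 32 consecutive rows of the table, with 22 other rows among them. By mean normalized counts the order was ENSRNOG00000034234 with 1360128, ENSRNOG00000030700 with 579025, ENSRNOG00000031979 with 531292, ENSRNOG00000030371 with 471361 and ENSRNOG00000031766 with 438975. ENSRNOG00000029707 with 397511, ENSRNOG00000031033 with 370432, ENSRNOG00000030644 with 335315 and ENSRNOG00000043866 with 227506 followed. The last transcript inside the limit was ENSRNOG00000029971 with 211744, and the first outside it was ENSRNOG00000046005 with 183226. These levels are counts per transcript and not per length, so their order is one of counts alone.

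The share of a library's counts held by the 10 transcripts overlapped between all groups. In Wistar males it was 10.1%, 9.33%, 9.67% and 7.06% in replicates 2, 3, 4 and 5 (9.03% ± 1.35, SD, n = 4). In SHR males it was 10.6%, 11.3%, 10.4%, 8.96% and 10.3% in replicates 1 to 5 (10.3% ± 0.858, n = 5). In Wistar females it was 11.8%, 9.74%, 10.9%, 8.33% and 7.41% (9.63% ± 1.79, n = 5). In SHR females it was 10.4%, 10.6%, 9.78%, 9.70% and 9.25% (9.93% ± 0.533, n = 5). The lowest shares were those of Wistar male replicate 5 and Wistar female replicates 5 and 4, and the highest was that of Wistar female replicate 1. The ratio of the group means was 1.14 for SHR over Wistar males, 1.03 for SHR over Wistar females, 1.07 for Wistar females over males and 0.962 for SHR females over males. In bulk RNA, fewer cells rich in these transcripts and fewer transcripts per cell cannot be told apart.

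**Figure D1:**
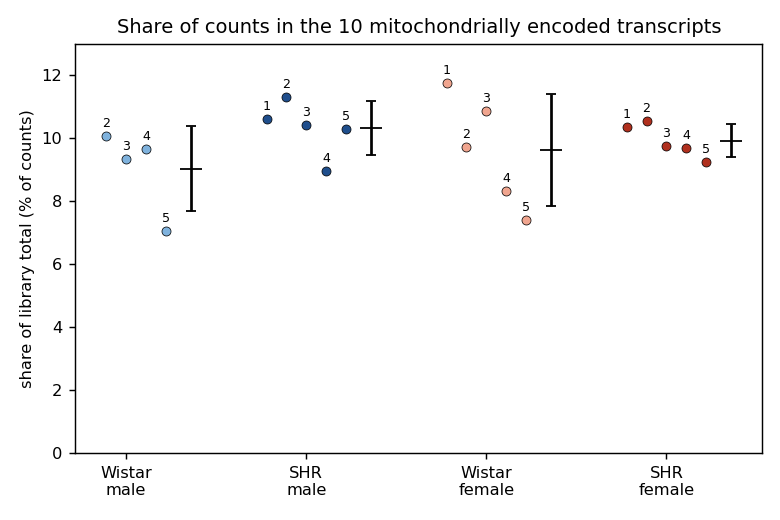
Share of each library's counts held by the 10 transcripts (percent, vertical axis) in the 4 groups; each point is 1 library, the digits are replicate numbers, and the bars give the mean and SD. The Wistar libraries spread from 7.06% to 11.8% and enclose all SHR libraries, which lie between 8.96% and 11.3%.

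The spread of the transcripts within a group was widest in Wistar rats. That of their summed share was narrower without Wistar male 5, and without Wistar females 4 and 5. As a median over the 10, the SD of log2 CPM (counts per 1000000 of the library total, with 0.5 added) within a group was 0.29 in Wistar females and 0.24 in Wistar males, against 0.09 in SHR females and 0.15 in SHR males. Over all 17432 genes tested in the fit of all groups, the median SD was 0.19, 0.14, 0.14 and 0.13 in the same order. The coefficient of variation of the summed share was 18.6% and 14.9% in Wistar females and males, and 5.37% and 8.31% in SHR females and males. Without Wistar male 5 that of Wistar males was 3.80% (n = 3). Without Wistar females 4 and 5 that of Wistar females was 9.44% (n = 3), still above both SHR values. These alternatives were chosen after seeing the data. They leave out the lowest shares of each Wistar group and no SHR library, and leaving out extreme values tends to narrow a spread. These Wistar values are thus not like for like with those of SHR. The difference in spread was not tested.

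Between males, ENSRNOG00000043866 was higher in SHR than in Wistar rats, and the other 9 transcripts did not pass the test. Its level was 3990, 3412, 4253 and 3218 CPM in Wistar males 2 to 5 and 5141, 5991, 6131, 5001 and 6322 CPM in SHR males 1 to 5. Every SHR male lay above every Wistar male, a separation that 14.5% of all tested genes showed in either direction and 4.39% in the direction of higher values in SHR. The log2 fold change was 0.68 with a standard error (SE) of 0.11 (1.60-fold, edgeR quasi-likelihood test with Benjamini-Hochberg adjustment, adjusted p = 0.00339, higher in 5 of 5 SHR males). It was the only one of the 10 transcripts called at an adjusted p under 0.05, where 12% of all tested genes were called in either direction and 5.14% as higher in SHR. Of the called genes 898 were higher and 1204 lower in SHR, and with library totals as the only scaling 520 were higher (2.98% of all tested genes) and 1465 lower. The adjusted p stayed between 0.00407 and 0.0129 when any 1 male library was left out, and was 0.991 with the Bonferroni adjustment over all 17461 genes.

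All 10 transcripts had log2 fold changes above 0 in males, from 0.11 to 0.68 with a median of 0.31, whereas 49.3% of all tested genes were above 0 and their median was 0.00. The 10 were measured in the same libraries, so here and below a count of them is not a count of independent observations. ENSRNOG00000030700 was at 11443, 11102, 11123 and 8569 CPM in Wistar males and at 12490, 13239, 12596, 10879 and 12958 CPM in SHR males. These values overlapped only through SHR male 4, and the log2 fold change was 0.29 (SE 0.11, edgeR adjusted p = 0.108). DESeq2's Wald test called this transcript as well, so that it called 2 of the 10. ENSRNOG00000030644 had a log2 fold change of 0.35 (SE 0.16, edgeR adjusted p = 0.173). These 3 transcripts had an unadjusted p under 0.05, as did 28.6% of all tested genes. The most abundant transcript, ENSRNOG00000034234, differed least, with a log2 fold change of 0.11 (SE 0.11, edgeR adjusted p = 0.548). Without Wistar male 5, the library with the lowest share, the median of the 10 log2 fold changes was 0.16 and ENSRNOG00000043866 was still called with a log2 fold change of 0.60 (edgeR adjusted p = 0.00429).

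**Figure D2:**
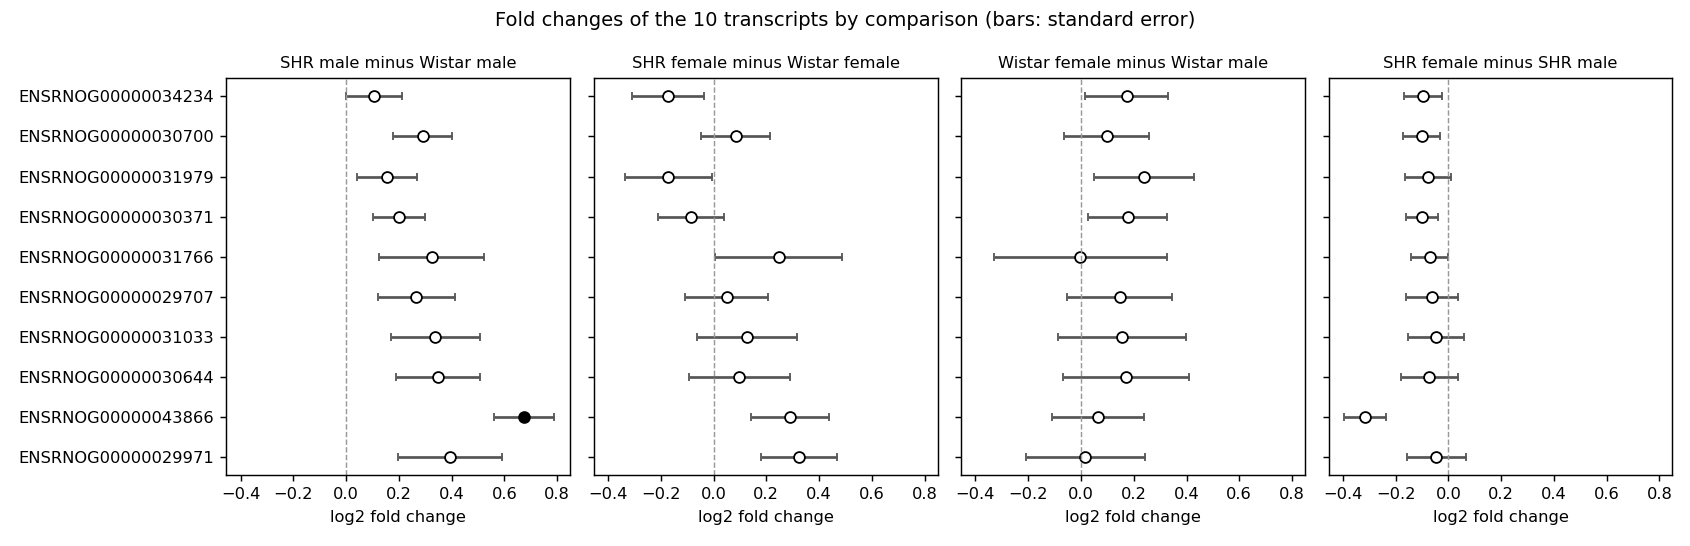
Log2 fold changes of the 10 transcripts (horizontal axes) in the 4 comparisons of 2 groups, with bars of 1 SE derived from the edgeR test statistic. Filled points mark an adjusted p under 0.05. The filled point is ENSRNOG00000043866 at 0.68 in SHR against Wistar males, and the 10 values lie above 0 in that panel and below 0 in SHR females against males.

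Between females, 0 of the 10 transcripts were called in SHR against Wistar rats with edgeR and 0 with DESeq2, where edgeR called 2.32% of all tested genes. The log2 fold changes ran from -0.17 to 0.32 with a median of 0.09, and 7 of 10 were above 0, as were 49.4% of all tested genes. The CPM of the groups overlapped for all 10, whereas 5.28% of all tested genes did not overlap. ENSRNOG00000029971 was at 4240, 3736, 4101, 3341 and 2723 CPM in Wistar females and at 5074, 4880, 4519, 4747 and 4132 CPM in SHR females. The groups overlapped through 1 library on each side, Wistar female 1 and SHR female 5. Its log2 fold change of 0.32 (SE 0.15, edgeR adjusted p = 0.283) gave the only unadjusted p under 0.05 among the 10, and 17% of all tested genes had one. ENSRNOG00000043866 was at 4022, 3902, 4772, 3121 and 2932 CPM in Wistar females and at 4952, 4516, 4855, 4846 and 4390 CPM in SHR females. Here the groups overlapped through Wistar female 3, and the log2 fold change was 0.29 (SE 0.15, edgeR adjusted p = 0.348).

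The size of the differences between females shifted with single Wistar libraries, although 0 of the 10 were called with any 1 library left out. The median of the 10 log2 fold changes was 0.24 without Wistar female 1, 0.04 without Wistar female 4 and 0.00 without Wistar female 5, when 5 of 10 were above 0. Without Wistar females 4 and 5 together, an alternative chosen after seeing the data, 2 of the 10 transcripts were above 0 and the median log2 fold change was -0.12. ENSRNOG00000034234 was then called as lower in SHR females, with a log2 fold change of -0.33 (SE 0.08, edgeR adjusted p = 0.0392), in a fit that called 1750 genes in place of 403. Its level was 32507, 28846, 32112, 26105 and 23114 CPM in Wistar females and 26947, 27433, 25714, 25679 and 24306 CPM in SHR females. With all libraries these ranges overlapped and the log2 fold change was -0.17 (SE 0.14, edgeR adjusted p = 0.546).

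Between the sexes, 0 of the 10 transcripts were called in Wistar rats, where edgeR called 0.0629% of all tested genes. Female minus male log2 fold changes ran from 0.00 to 0.24, 9 of 10 were above 0 (51.1% of all tested genes were), and 0 had an unadjusted p under 0.05, against 4.09% of all tested genes. DESeq2 also called 0. The groups overlapped in CPM for all 10, as they did for all but 1.35% of the tested genes. The SE of these values was 0.15 to 0.33. The direction did not hold in every alternative: 6 of 10 were above 0 without Wistar female 1 (median 0.01 in place of 0.15) and 6 without Wistar male 5 (median 0.01). Wistar males have no replicate 1, and 5 of 10 were above 0 with the replicate number as a block (median 0.00) and 7 with it as a covariate (median 0.01).

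In SHR, all 10 log2 fold changes of females over males were below 0, from -0.32 to -0.05, where 51.8% of all tested genes were above 0, and edgeR called 0 of the 10, against 0.0694% of all tested genes. ENSRNOG00000043866 had the largest difference, -0.32 (SE 0.08, edgeR adjusted p = 0.174). The 5 SHR females, at 4390 to 4952 CPM, lay below the 5 SHR males, at 5001 to 6322 CPM, which 2.68% of all tested genes did in either direction. It was the only one of the 10 with an unadjusted p under 0.05, which 14.9% of all tested genes had. DESeq2 called it with an adjusted p of 0.0186 and a log2 fold change of -0.32. The other 9 log2 fold changes lay between -0.10 and -0.05, and without SHR male 2 or SHR female 5 there were 2 and 1 of the 10 above 0.

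Whether the strain difference itself differed between the sexes was tested as an interaction. The 10 interaction terms (the strain difference in females minus that in males) were below 0, from -0.38 to -0.06 on the log2 scale, with a median of -0.22. With library totals as the only scaling 2 of them were above 0, as were 2 with the replicate number as a covariate, 1 with it as a block (median -0.15), and 2 without Wistar female 1 (median -0.11) or without Wistar male 5 (median -0.10). Of all tested genes, 50.6% were above 0. EdgeR called 0 of the 10 and 0 of all 17432 genes, and DESeq2 called 0 of the 10 and 48 genes. Without Wistar male 5 and Wistar females 4 and 5, an alternative chosen after seeing the data, edgeR called 0 of the 10 and 479 of 17344 genes. None of the 10 had an unadjusted p under 0.05, against 13.4% of all tested genes. For ENSRNOG00000043866 the term was -0.38 (SE 0.20, edgeR adjusted p = 0.400), so its call in males and its lack of a call in females were not shown to differ. The 4 comparisons share libraries in pairs and are not independent of each other.

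The make-up of the 10 transcripts, which does not depend on the library total, was compared through ratios of counts within a library. ENSRNOG00000034234 held 27.1% to 31.4% of the counts of the 10 in Wistar libraries and 25.5% to 27.2% in SHR libraries. Its ratio to ENSRNOG00000030700, the next in the order of counts, was 2.39, 2.43, 2.56 and 2.59 in Wistar males and 2.59, 2.57, 2.64, 2.66 and 2.62 in Wistar females. In SHR the ratio was 2.21, 2.18, 2.23, 2.24 and 2.06 in males and 2.25, 2.17, 2.18, 2.20 and 2.14 in females. All 9 Wistar libraries lay above all 10 SHR libraries. The other ratios of neighbours in the order of counts overlapped between the strains.

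**Figure D3:**
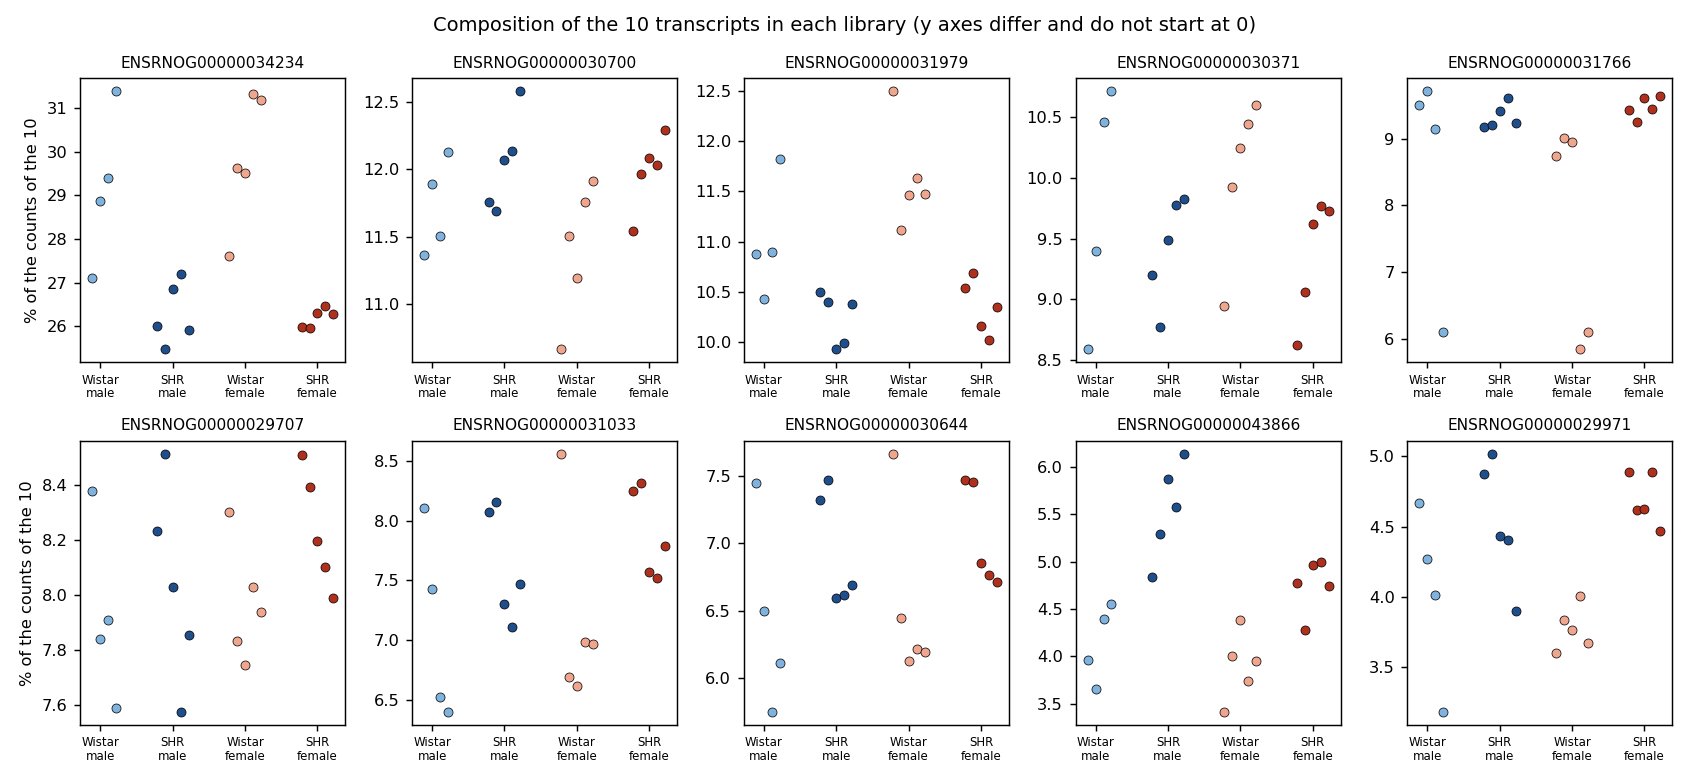
Percent of the summed counts of the 10 transcripts held by each transcript (vertical axes, which differ and do not start at 0), with 1 panel per transcript, the 4 groups along the horizontal axis and 1 point per library in order of replicate number. ENSRNOG00000034234 holds 27.1% to 31.4% in Wistar and 25.5% to 27.2% in SHR libraries, and in the panel of ENSRNOG00000031766 3 Wistar libraries lie at 5.85% to 6.11%, apart from all others.

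Ratios of neighbours in the order of counts gave 9 tests in each of 4 comparisons, 36 in all. The log2 ratio of ENSRNOG00000034234 to ENSRNOG00000030700 was lower in SHR by -0.19 in males (exact two-sided permutation test, p = 0.0159) and by -0.26 in females (exact permutation p = 0.00794). Each is the smallest p that the numbers of libraries allow, and both were 0.143 after Benjamini-Hochberg adjustment over the 36 tests. The log2 ratio of ENSRNOG00000030700 to ENSRNOG00000031979 was higher in SHR by 0.14 in males (exact permutation p = 0.0476, adjusted p = 0.286) and by 0.24 in females (exact permutation p = 0.00794, adjusted p = 0.143). In all, 6 of the 36 ratios had an unadjusted p under 0.05 and 0 passed the adjustment. With these smallest p-values, a ratio fully apart between the groups could not pass on its own. That 0 passed therefore does not show that the ratios were alike.

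As a mean over both sexes, the log2 ratio of ENSRNOG00000034234 to ENSRNOG00000030700 was -0.22 in SHR relative to Wistar, a ratio 0.856 times that in Wistar. That of ENSRNOG00000030700 to ENSRNOG00000031979 was 0.19, a ratio of 1.14 times that in Wistar, with 0.854 to 1.14 in Wistar and 1.09 to 1.21 in SHR libraries. These means are given as a description, since both ratios were singled out after their values by strain had been seen. ENSRNOG00000030700 is in both ratios, so they are not independent of each other.

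The ratio of ENSRNOG00000043866 to ENSRNOG00000034234, chosen after the values were seen and not tested, was 0.120 to 0.150 in the 9 Wistar libraries and 0.165 to 0.237 in the 10 SHR libraries. In this ratio the females of the 2 strains lay apart as well, although their CPM of ENSRNOG00000043866 overlapped. How many of the other ratios between transcripts that are not neighbours lay apart was not counted.

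ENSRNOG00000031766 was low in 3 of the 9 Wistar libraries and in 0 of the 10 SHR libraries. It was at 9570, 9063, 8850 and 4316 CPM in Wistar males 2 to 5 and at 10285, 8777, 9744, 4875 and 4526 CPM in Wistar females 1 to 5. In SHR it was at 9752, 10419, 9833, 8618 and 9514 CPM in males and at 9781, 9770, 9400, 9171 and 8907 CPM in females. In Wistar male 5 and Wistar females 4 and 5 it held 6.11%, 5.85% and 6.11% of the counts of the 10, against 8.74% to 9.71% in the other Wistar libraries and 9.18% to 9.63% in SHR. Its ratio to ENSRNOG00000030700 was 0.504, 0.497 and 0.513 in the 3 libraries, against 0.783 to 0.836 in the other Wistar libraries and 0.734 to 0.817 in SHR. The same 3 libraries had the lowest shares of the 10 transcripts among Wistar libraries also when ENSRNOG00000031766 was left out of the sum, at 6.63%, 7.85% and 6.96%. They carry the labels of 2 sexes and the 2 highest replicate numbers, and what the number stands for is not stated in the sources used here. How many of all genes stood apart in the same 3 libraries was not counted. The strain difference of this transcript was not called in males (log2 fold change 0.32, SE 0.20, edgeR adjusted p = 0.300) or in females (0.25, SE 0.24, adjusted p = 0.638), and its SE was the largest of the 10 in both.

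**Figure D4:**
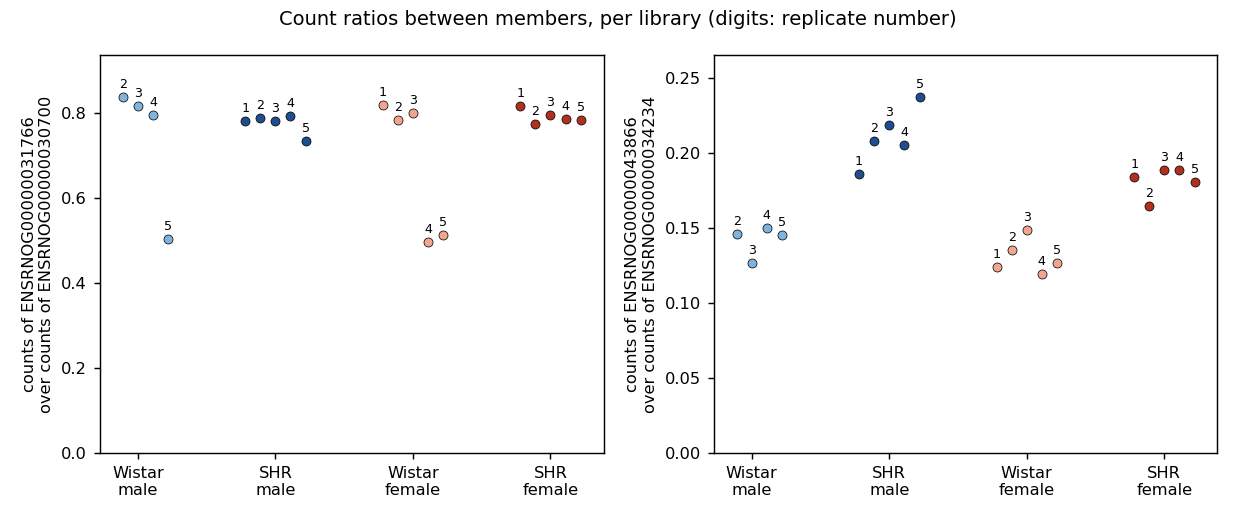
Count ratios within each library (vertical axes, from 0) of ENSRNOG00000031766 to ENSRNOG00000030700 on the left and of ENSRNOG00000043866 to ENSRNOG00000034234 on the right, by group; each point is 1 library and the digits are replicate numbers. On the left 3 Wistar libraries lie at 0.497 to 0.513 and all others at 0.734 to 0.836, and on the right the Wistar libraries (0.120 to 0.150) lie below the SHR libraries (0.165 to 0.237).

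The levels were lower in libraries with higher replicate numbers. In a fit with the group and the replicate number as terms, 8 of the 10 transcripts were called as falling with the number, against 15.3% of all tested genes called in either direction and 6.23% called as falling. With library totals as the only scaling 8 of the 10 were also called, with 1.55% of all tested genes called as falling (270 genes in place of 1086) and 2839 in place of 1575 as rising. All 10 slopes were below 0, from -0.18 to -0.06 per number on the log2 scale with a median of -0.13, and the median of all genes was 0.00 with 50.5% above 0. An unadjusted p under 0.05 was found for 9 of the 10 and for 30.2% of all tested genes. ENSRNOG00000030644 had the smallest adjusted p, with a slope of -0.18 (SE 0.03, edgeR adjusted p = 0.00115). It was at 9018, 6274, 6670, 5183 and 4590 CPM in Wistar females 1 to 5 and at 7745, 7870, 6700, 6563 and 6207 CPM in SHR females 1 to 5. In males it was at 7497, 6063, 5561 and 4319 CPM in Wistar 2 to 5 and at 7771, 8457, 6882, 5929 and 6891 CPM in SHR 1 to 5. In SHR males number 5 thus lay above number 4 and close to number 3. ENSRNOG00000030371 and ENSRNOG00000043866, with slopes of -0.06 each, were not called (edgeR adjusted p = 0.120 and 0.202). The libraries were also numbered through in order of group, and within each group this running number rose in step with the replicate number. With the group as a term, the slope on the replicate number is also a slope on the running number. They cannot be told apart here.

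The calls were not made without the 3 Wistar libraries with low ENSRNOG00000031766. These also carry the highest numbers of their groups, so leaving them out shortens the range of numbers and lowers the count of libraries. In Wistar libraries alone 8 of the 10 were called, where 8.76% of all tested genes were, and the slopes ran from -0.37 to -0.12. All 10 had an unadjusted p under 0.05 there, against 28.3% of all tested genes. In SHR libraries alone 0 of the 10 and 0 of all 17285 genes were called with edgeR, the slopes ran from -0.11 to -0.01, and 7 of the 10 had an unadjusted p under 0.05, against 13.1% of all tested genes. The difference between the slopes of the strains was called for 0 of the 10 and 0 of all genes with edgeR. It was above 0 for all 10, with an unadjusted p under 0.05 for 10 of 10, against 9.26% of all tested genes. The 10 come from the same libraries, so these are not 10 independent results. Without Wistar male 5 and Wistar females 4 and 5, 0 of the 10 were called, in a fit that called 56 of 17344 genes in place of 2661. The median slope was then -0.06, with 1 of the 10 slopes above 0. Leaving out Wistar female 1 or Wistar female 5 alone left 6 of the 10 called, in fits that called 1661 and 1169 genes, and leaving out any other single library left 8. These alternatives by strain and without the 3 libraries were chosen after seeing the data.

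**Figure D5:**
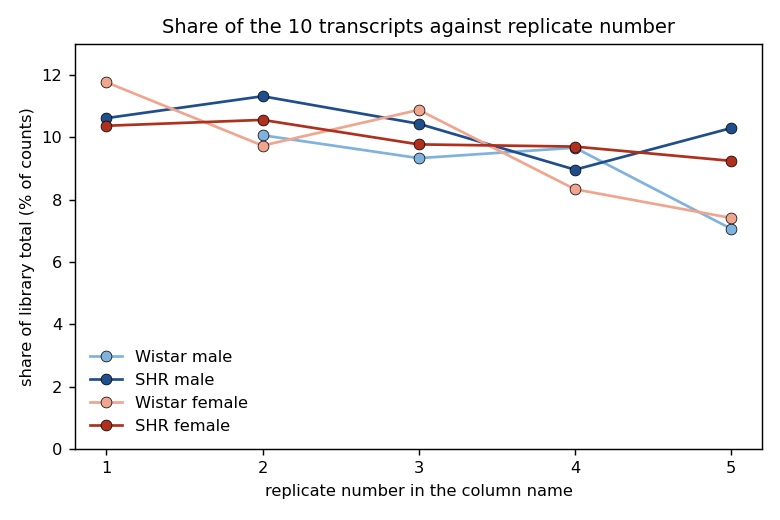
Share of each library's counts held by the 10 transcripts (percent, vertical axis) against the replicate number in the library's label (horizontal axis), by group. In Wistar females the share is 11.8% at number 1 and 7.41% at number 5, and in SHR females 10.4% and 9.25%. In SHR males it is 10.6% at number 1 and 10.3% at number 5, and in Wistar males 10.1% at number 2 and 7.06% at number 5.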

How the data were processed

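The 19 libraries of PVN RNA were grouped by strain and sex from their labels. Read trimming (Trimmomatic), alignment to the Rn7 genome (STAR) and counting (featureCounts) were done by the authors, and the deposited values are raw counts per gene, with no normalization. Of the counts from 1 to 100, 73.9% were even, so single counts may not be independent draws and the Wilson intervals may be too narrow. The cause was not tested. Each label names 1 rat, and p-values measure the spread between these libraries.

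Genes with a mean above 5 normalized counts in the libraries compared were tested with edgeR 4.0.16 in R 4.3.3 (quasi-likelihood test, TMM, Benjamini-Hochberg adjustment over all genes tested, threshold 0.05), and all 10 transcripts were tested in each fit. The strain and sex comparisons used the 2 groups compared, and the interaction and the replicate number used all 4 groups. The authors used DESeq2; DESeq2 1.42.0, other scalings and filters, the Bonferroni adjustment, a replicate block and leaving out each library were alternatives. Ratios were tested by exact permutation in Python 3.11.15 with scipy 1.17.1. The SE given with an edgeR value was derived from its test, as the absolute log2 value over the square root of the F statistic. The edgeR steps were tested on simulated data. All 10 transcripts were described, and libraries by their individual values. The 10 transcripts were taken by their mean level alone. The choice to examine them, and the lists, were made with earlier results of these data known. Lists of nuclear genes and cell type markers, and genes of similar pattern, were not analysed here because the identifiers matched no symbols. Whole-number counts at this depth make counting error small beside the spread between rats.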

Additional observations from a re-analysis of the deposited data

Results flagged for a closer look

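For the CPM of each transcript, the summed share and the log2 ratio of neighbours, 80 groups of 4 or 5 libraries were examined for 1 library far from the others by Dixon's criterion, which chance meets in about 1 in 20 groups; 6 did so. ENSRNOG00000030700 was at 8569 CPM in Wistar male 5, against 11102 to 11443 CPM in the other Wistar males. ENSRNOG00000031766 was at 4316 CPM in the same library, against 8850 to 9570 CPM. ENSRNOG00000030371 was at 8764 CPM in SHR male 4, against 9772 to 10125 CPM in the other SHR males. In Wistar female 1 the log2 ratio of ENSRNOG00000031979 to ENSRNOG00000030371 was 0.48, against 0.11 to 0.16 in the other Wistar females, and that of ENSRNOG00000029707 to ENSRNOG00000031033 was -0.0443, against 0.19 to 0.23. In SHR female 5 the log2 ratio of ENSRNOG00000031033 to ENSRNOG00000030644 was 0.21, against 0.14 to 0.16 in the other SHR females.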

How the results depend on the processing

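Of the 10 transcripts, the number called in SHR against Wistar males was 2 with DESeq2 and 0 with Bonferroni adjustment, and in SHR females against males 1 with DESeq2. For the replicate number it was 0 with Bonferroni adjustment, 0 in SHR libraries alone and 0 without Wistar male 5 and Wistar females 4 and 5, and without those 3 libraries it was 1 in SHR against Wistar females. Leaving the transcripts out of the library total raises the share in every group by construction. The mean share was then 11.5% in place of 10.3% in SHR males, and 11% in place of 9.93% in SHR females. These values cannot be set against the Wistar shares given above, which keep the transcripts in the total. A permutation test of strain over both sexes put 2 of 9 ratios under the threshold. It was added after the values were seen and so is no independent support. Of the 36 planned tests 0 were under the threshold, which a ratio could not reach there on its own. Without the 3 libraries the log2 fold change between females was -0.078 for ENSRNOG00000030700, -0.098 for ENSRNOG00000031766, -0.142 for ENSRNOG00000029707, -0.0887 for ENSRNOG00000031033 and -0.133 for ENSRNOG00000030644, all above 0 with all libraries, and the slope of ENSRNOG00000043866 was 0.0036. With 1 library left out, or these 3, that comparison ranged from -0.14 to 0.19 for ENSRNOG00000029707 and from -0.13 to 0.30 for ENSRNOG00000030644, with -0.0409 and -0.00637 without Wistar female 5. In SHR females against males, with 1 library left out, it ranged from -0.12 to 0.0171 for ENSRNOG00000031033 and from -0.11 to 0.0361 for ENSRNOG00000029971. The log2 ratio of ENSRNOG00000030371 to ENSRNOG00000031766 between males ranged from -0.31 to 0.0119, the latter without Wistar male 5. The causes were not tested. Over all genes, edgeR called 2102 in SHR against Wistar males (87 with Bonferroni adjustment), 403 between females (1097 with DESeq2, 1104 with all groups in 1 fit, 835 with the replicate number as a covariate), 12 in SHR females against males (303 with DESeq2) and 0 for the interaction (48 with DESeq2, 32 with the replicate block, 479 without the 3 libraries). With 1 library left out these ranged from 1203 to 1883 between males and from 174 to 811 between females. Same-numbered libraries did not deviate together throughout (r from -0.33 to 0.51, above 0.1 in 3 of 4, 3 of 5, 2 of 4 and 2 of 5 pairs). Those numbered 5 had r of 0.24 between males, 0.50 between females, 0.51 between Wistar sexes and 0.19 between SHR sexes. Differently numbered libraries had r from -0.39 to 0.53. The numbers were not taken as pairs. A replicate block changed no number called among the 10: 1 was called between males and 0 in the other comparisons and the interaction. It changed how many of the 10 were above 0 from 9 to 5 in Wistar females against males and from 0 to 1 for the interaction. The alternatives for other mitochondrial and nuclear genes were not run, since identifiers matched no symbols.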
